A study of Gallus gallus with 40 samples.

Results

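Interferon-stimulated genes (ISGs) were followed across 40 one-color Agilent arrays of broiler breast muscle, each hybridized with RNA of the pectoralis major. Each array is taken here as 1 bird, which the labels do not state outright. The list held 8 genes: IFI6, MX1, IFIT5, OASL, RSAD2, IFIH1, DHX58 and EIF2AK2. IFI6 was selected on its processed signal, which spread widely between arrays of one group, and the others because they belong to the same response. A probe was taken as a member when its RefSeq transcript is assigned to one of these symbols. This gave 7 of the 56401 non-control probes, on 17 spots, for 5 of the 8 genes: 1 probe each for IFI6, MX1, IFIH1 (on 11 spots) and DHX58, and 3 for EIF2AK2. IFIT5, OASL and RSAD2 are named only, since no probe could be matched to them here. Probes without a symbol may still measure them. RefSeq gave a symbol to 25956 probes, which stand for 13912 genes.

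The birds were male commercial broilers, which the labels call ROSS and place on 5 farms without saying which bird came from which, while the methods name a facility of one producer for the striped birds. In the white striping (WS) study, 21 arrays held 4 birds without striping (non-WS), 7 with mild, 6 with moderate and 4 with severe WS, the fatty white lines along the muscle fibers. Other label fields of the striped birds list their level under the wooden breast defect and striping as absent, and the grade was taken from the array titles. The methods describe striped birds 7 weeks old, 6 of them with mild WS, and found no bird without striping. They thus do not describe the age and origin of the non-WS birds, and no array of the WS study carries an age label. In the wooden breast (WB) study, 19 arrays held 8 birds with severe WB, a hardening of the same muscle, and 11 without it. WB1 (n = 2) had mild WS at 49 days and was compared with non-WB1 (n = 3) of the same striping and age. WB2 (n = 3) had moderate WS at 49 days, as had non-WB2 (n = 4). WB3 (n = 3) had mild WS at 45 days or under, whereas non-WB3 (n = 4) had severe WS at that age, so that striping differed between these arms too.

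Vertebrate cells secrete interferon when they sense viral or misplaced nucleic acid. Interferon binds receptors on the same and on neighboring cells, and JAK and STAT proteins then switch on a set of antiviral genes together. Many of these are nearly silent in resting tissue, which makes them sensitive reporters of a recent response in skeletal muscle as elsewhere. Among the 8 genes, IFIH1 (also called MDA5) senses double-stranded RNA in the cytoplasm, a role of particular weight in the chicken, which lacks RIG-I, and DHX58 (LGP2) regulates this sensor. EIF2AK2 (PKR) is a kinase that shuts down translation when it binds double-stranded RNA. MX1 is a dynamin-like GTPase that blocks viruses in mammals, and IFI6 is a small membrane protein with antiviral activity described in human cells.

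Signals are given as quantile-normalized processed intensity, in arbitrary units, with each study normalized on its own, so that levels are not set against each other across the studies or between probes. The median processed signal of an array lay between 76.4 and 259 in the WS study and between 122 and 298 in the WB study, 66.9% to 77.1% and 70.7% to 78.6% of spots were well above background, and no spot was saturated. The fast troponins TNNC2, TNNI2 and TNNT3, which mark white muscle fibers, were well above background on every array, at mean log2 signals of 18.18, 17.82 and 17.81 in the WS and 18.17, 17.74 and 17.71 in the WB study. Non-WS replicate 2 was the dimmest array of the WS study (76.4), and the WB1 arrays were the brightest of the WB study. The number of arrays limits the precision. The p-values of differences and slopes weigh them against the spread left between these arrays.

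In the WS study IFI6 spread over more than 2 orders of magnitude. Its signal was 1729, 12618, 589.6 and 904 in the 4 non-WS birds and 1161, 2951, 1313 and 8434 in the 4 birds with severe WS. Over the 7 birds with mild WS it ran from 449 through a median of 1009 to 56300, and over the 6 with moderate WS from 528 through 830.02 to 2172. Thus 1 mild, 1 non-WS and 1 severe bird lay above all others, and the moderate group held none of them. These birds, mild replicate 1, non-WS replicate 2 and severe replicate 4, were at 58.9, 13.2 and 8.82 times the median of the other 18 birds (956), whose highest was 2951. IFI6 was chosen for this spread, so the spread is a description: its range within mild WS was 6.97 on the log2 scale, and 0.0123% of the 32627 probes that passed the detection filter had a larger one. The transcripts next to it in that order had ranges of 7.00 and 6.69.

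MX1 was high in the same birds. It reached 4399 in mild replicate 1, 906 in non-WS replicate 2 and 274 in severe replicate 4, against 3.64 to 106 in the other 18 birds, whose median was 38.8. All 3 birds were above all of the other 18, at 113, 23.4 and 7.06 times their median, and in the same order as for IFI6. The MX1 probe was not well above background in mild replicate 2 and non-WS replicate 3, the birds with the lowest values of 3.64 and 6.59, and therefore failed the detection filter. It was kept in the fit as a member.

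The sensor gene IFIH1 followed with smaller steps. Its signal was 789.5 in mild replicate 1, 256 in non-WS replicate 2 and 231 in severe replicate 4, and 107.01 to 196 in the other birds (median 163). In normalized signal the 3 birds again lay above all others, at 4.85, 1.57 and 1.42 times their median. Before normalization, non-WS replicate 2 and severe replicate 4 read 142 and 195, and moderate replicate 5, a brighter array, read 329. The place of these replicates above all others thus rests on the normalization. The 11 spots of the probe had a median coefficient of variation of 6.4% over the 40 arrays.

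The 3 EIF2AK2 probes did not behave alike. The brightest, on transcript XM_015283612.1, read 4371, 4617 and 3792 in these birds and 2072 to 5402 in the others, so that the highest bird was severe replicate 2 and the groups of birds overlapped. The probe on NM_204487.1 read 1288, 465.6 and 346 against 176 to 347 in the others (median 237), and its 3 birds held ranks 1, 2 and 4. Before normalization, this probe read 258 in non-WS replicate 2, 293 in severe replicate 4 and 633 in moderate replicate 5. Ranks 2 and 4 thus rest on the normalization. The third probe, on XM_015283611.1, was dim and well above background in 17 of 21 birds; it read 134 in mild replicate 1 and at most 35.8 in the birds outside the 3. The files do not tell which of the transcripts the muscle makes. DHX58 was not well above background on any of the 40 arrays, and no difference of DHX58 could be measured.

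**Figure D1:**
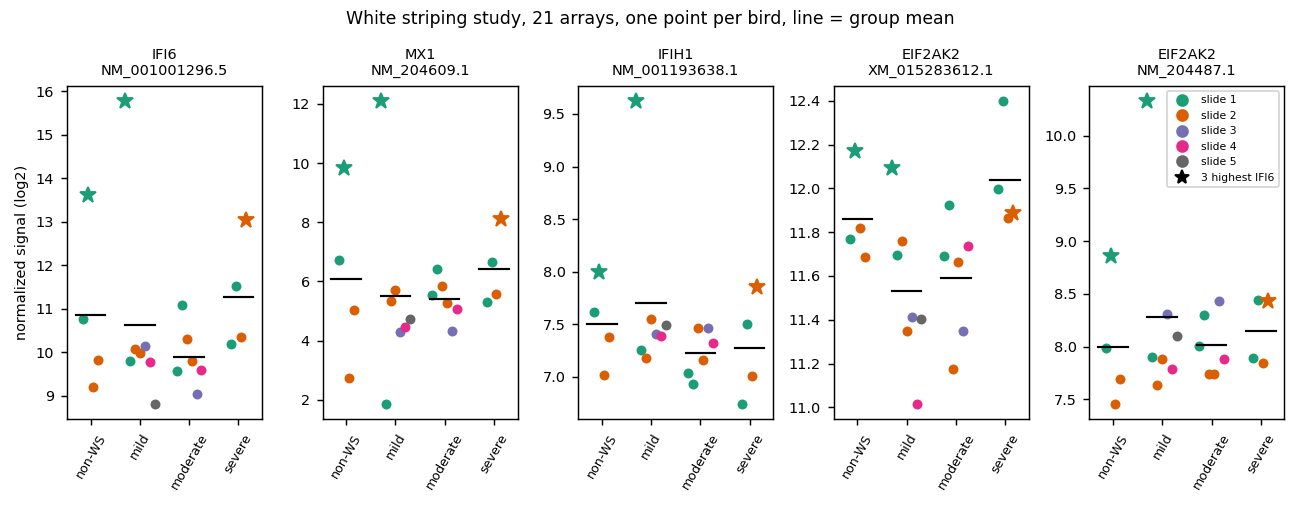
Normalized signal (log2, y axis) of IFI6, MX1, IFIH1 and the 2 brighter EIF2AK2 probes in the 21 birds of the WS study by striping grade; points are birds colored by slide, bars are group means and stars mark the 3 birds with the highest IFI6. The stars come from 3 different grades. Those of MX1 and IFIH1 also lie above all other birds, whereas those of EIF2AK2 XM_015283612.1 lie within the range of the other birds.

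Whether the genes rose together within grade and slide was tested with limma by the slope of each probe on the log2 signal of IFI6, beside the striping group and the slide, over the 21 birds. The slide factor absorbs mild replicate 7, which is alone on its slide in this study. Of 32629 probes, 58 (0.178%) had a slope past an FDR of 0.05, and all 58 slopes were positive. Of the 4 other members with a probe, MX1 and IFIH1 were among them by their brightest probe, and EIF2AK2 by its 2 dimmer probes only. MX1 rose by 1.35 log2 units per log2 unit of IFI6 (SE 0.14, 95% interval 1.05 to 1.64, limma adjusted p = 0.000236), and by 1.17 with signals under 20 set to 20. IFIH1 rose by 0.35 (SE 0.046, 95% interval 0.25 to 0.44, adjusted p = 0.00223). For EIF2AK2 the brightest probe had a slope of 0.06 (SE 0.039, adjusted p = 1), while NM_204487.1 rose by 0.34 (SE 0.035, adjusted p = 0.000212) and the dim XM_015283611.1 by 0.39 (SE 0.069, adjusted p = 0.0275). Residuals after group and slide correlated with those of IFI6 at 0.93 for MX1, 0.90 for IFIH1, 0.95 for NM_204487.1 and 0.42 for XM_015283612.1 over the 21 birds, as a description.

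These slopes rested on few birds. Without mild replicate 1, 7 probes in place of 58 passed and no member with its brightest probe did: the MX1 slope was 1.32 (adjusted p = 0.0693), that of IFIH1 0.23 (0.407) and that of NM_204487.1 0.24 (0.0648). Without the 3 birds with the highest IFI6 no probe passed (0 of 32920), and the slopes were 1.68 for MX1, 0.22 for IFIH1 and 0.20 for NM_204487.1 (adjusted p = 1 each).

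Among the 18 birds left, the signals of IFI6 and MX1 still went together. Pearson's r was 0.633 and Spearman's rho 0.713 (permutation p = 0.00584 and 0.00119, adjusted over the 8 relations tested in both studies 0.0234 and 0.00952), with no allowance for grade or slide. Leaving out the 2 birds farthest from the median of IFI6 gave r = 0.509. Within slide 1 (n = 6) r was 0.659 and within slide 2 (n = 7) it was 0.904, and the other slides held too few of these birds. Each of these values includes a bird with MX1 not well above background. These are mild replicate 2 on slide 1 (3.64) and non-WS replicate 3 on slide 2 (6.59). The correlation without them was not tested. For IFIH1 r was -0.0211 (permutation p = 0.934), for NM_204487.1 0.302 (p = 0.224) and for the brightest EIF2AK2 probe 0.541 (p = 0.0214, adjusted 0.057), which fell to 0.201 without 2 birds. Within slide 1 and slide 2, r was 0.399 and 0.306 for IFIH1 and 0.837 and 0.748 for NM_204487.1. For the brightest EIF2AK2 probe it was 0.779 and -0.352. Correlations within a slide were not tested. Outside the 3 highest birds, MX1 was thus the one member whose correlation with IFI6 over all slides passed the adjusted threshold in the WS study.

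**Figure D2:**
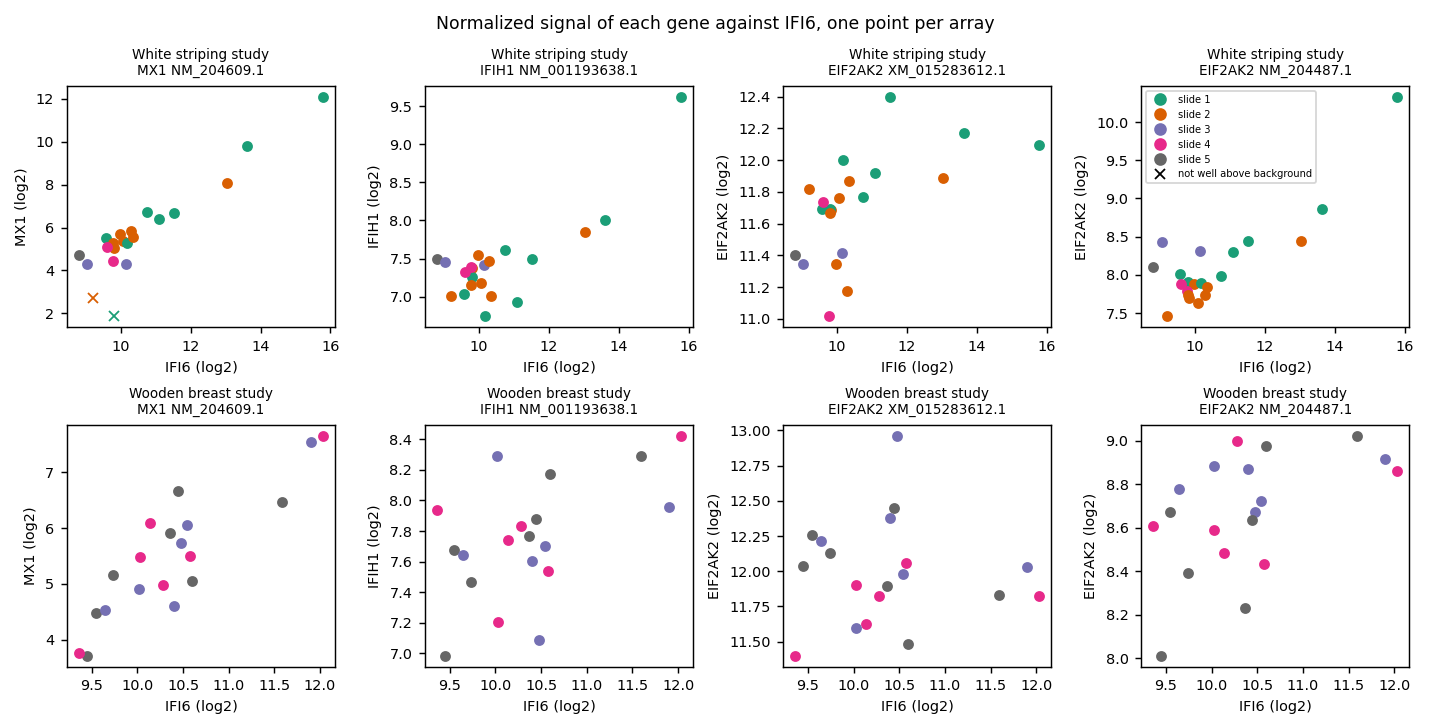
Normalized signal (log2) of MX1, IFIH1 and 2 EIF2AK2 probes (y axes) against that of IFI6 (x axes), 1 point per array colored by slide, in the WS (21 arrays, upper row) and the WB study (19 arrays, lower row); crosses mark MX1 signals not well above background. MX1 and IFI6 go together in both studies, also outside the 3 highest arrays (r = 0.633 and 0.732), and IFIH1 and EIF2AK2 NM_204487.1 in the WS study stand out mainly in mild replicate 1.

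The wider response was read from lists of interferon genes, with 1 probe per gene and only genes detected on every array. Of 12 other interferon-stimulated effectors, 5 rose with IFI6 in the WS study and none fell; the median slope of this list was 0.207, against -0.000838 over all probes. LY6E, a membrane protein anchored by GPI, read 48260, 24030 and 21750 in the 3 birds and 5304 to 14250 in the others (slope 0.43, SE 0.059, limma adjusted p = 0.00261). GBP1, an interferon-induced GTPase, read 13270, 4967 and 5372 against 1670 to 3709 (slope 0.35, SE 0.047, adjusted p = 0.00216). ZC3HAV1, which binds viral RNA and marks it for decay, read 893, 515.4 and 556 against 176 to 421 (slope 0.30, SE 0.037, adjusted p = 0.0014). For these genes the 3 birds were again above all others. That is a description, since the genes are shown for a slope that rested on the same birds. Of all probes, 0.178% passed this slope test. EPSTI1 had the steepest slope of the list (0.60, SE 0.11, adjusted p = 0.0362) with 1292, 642 and 678 against 87.0 to 599. IFI27L2 had a slope of 0.33 (SE 0.058, adjusted p = 0.0261) with 5743, 3620 and 1995 against 688 to 2228, so that severe replicate 4 lay within the other birds.

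Of 8 sensors and adaptors 1 passed: TLR3, the endosomal receptor for double-stranded RNA, read 429, 281 and 196 against 49.9 to 135 (slope 0.40, SE 0.064, adjusted p = 0.0099). The median slope of the sensors was 0.027. None of 14 genes of interferons, receptors and signalling passed (limma, FDR 0.05; 4 had an unadjusted p under 0.05). Those most like IFI6 were the transcription factors IRF7 (slope 0.26, adjusted p = 0.479) and IRF1 (0.21, adjusted p = 1) and the feedback inhibitor SOCS1 (0.19, adjusted p = 0.794), and the median slope was 0.036. None of 5 genes of antigen presentation passed either (median 0.032; 1 had an unadjusted p under 0.05). The class I genes BF1 and BF2 had slopes of -0.09 and -0.10.

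The 58 probes carried 36 with a symbol, which stand for 25 genes, 22 of them not members. Besides the 6 genes named from the lists these were, chosen here after their values were seen, the RNA helicase MOV10, the cap methyltransferase CMTR1, the nuclear body genes PML and PMLL, ZNFX1, TRANK1, USP41, GBP4L, LYGL, STOML1, the complement protease C1S and LOC107055361, LOC415756, LOC417192, LOC420107 and LOC422513. The transcripts XM_421662.5 and NM_205041.1 carry no symbol here, and whether they belong to unmatched members was not settled. Their residual correlations with IFI6 were 0.97 in the WS study and 0.83 and 0.71 in the WB study.

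Markers of blood-borne cells were set beside these results. None of 8 macrophage and monocyte genes passed the slope test in the WS study (limma; 1, C1QC, had an unadjusted p under 0.05). All 8 slopes were positive, with a median of 0.174 against -0.000838 over all probes. The summed signal of this list was 163800, 98500 and 147700 in the 3 birds with the highest IFI6, with ranks 3, 17 and 8 of 21, within a range of 76620 to 214400. Of 5 lymphocyte genes none passed, at an unadjusted p under 0.05 either (median slope 0.0087), and the sums of the 3 birds held ranks 12, 21 and 9. Sums are on the linear scale, so that the brightest gene weighs most in them and their ranks. In the macrophage sum this is CD74 (mean log2 signal 16.48, next CTSS at 13.76). In the lymphocyte sum it is CD3D (12.48, next CD3E at 9.43). The heterophil genes matched did not pass the detection filter in the WS study. The part of these cells in the slopes was not tested. In whole muscle, fewer cells of a type and less RNA per cell cannot be told apart.

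**Figure D3:**
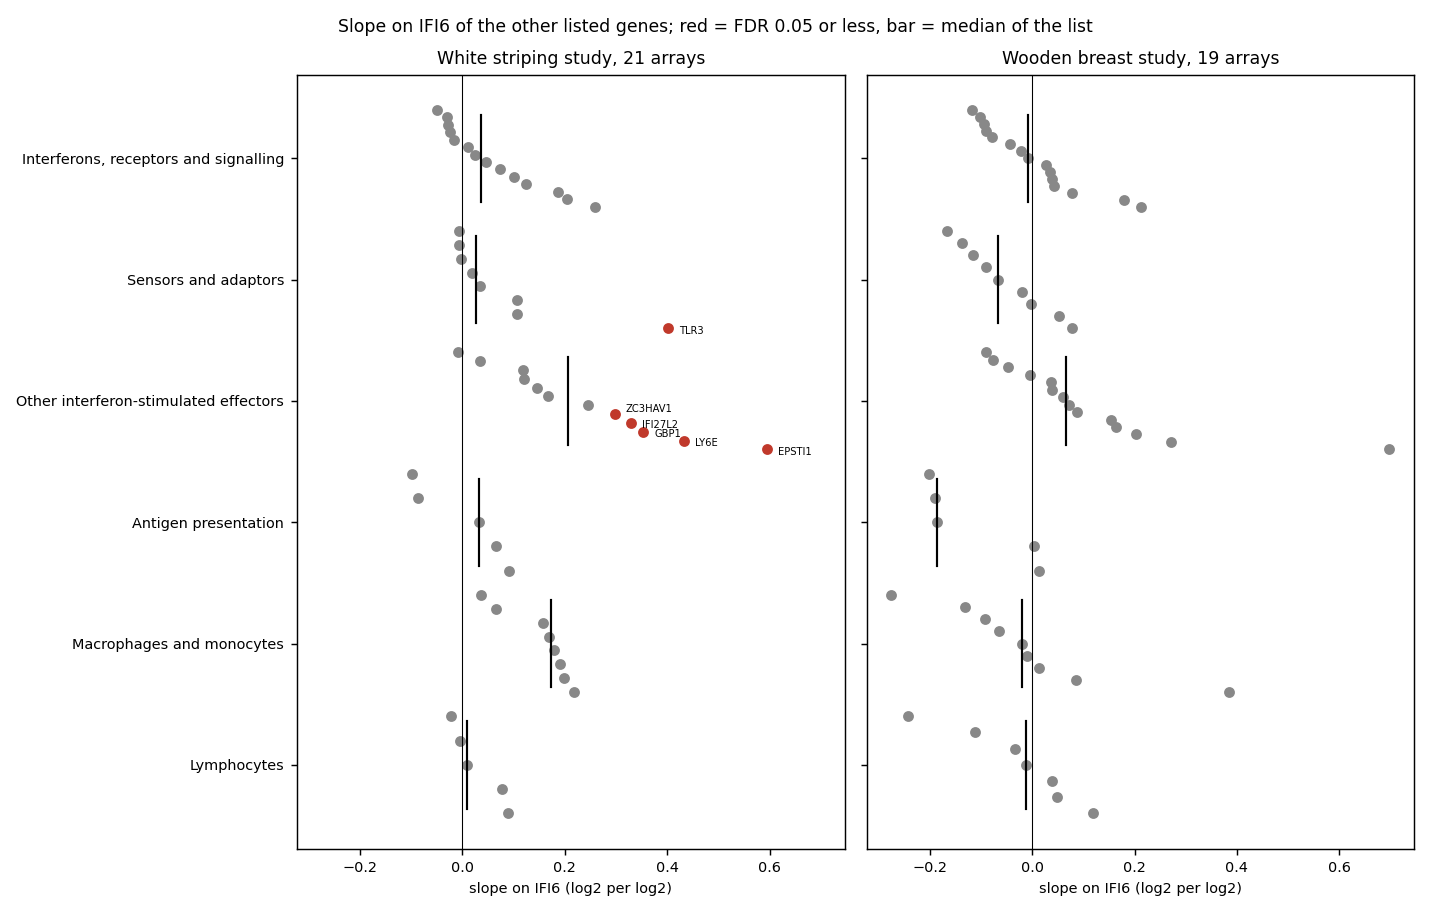
Slope on IFI6 (x axis, log2 per log2) of each gene of 4 interferon lists and of the macrophage and lymphocyte markers (y axis) in the WS (left) and WB study (right), from limma fits beside group and slide; red points passed an FDR of 0.05 and vertical bars are list medians. In the WS study 5 effectors and TLR3 are red, and in the WB study no gene is.

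By a rule set on correlations in both studies, the 5 named genes most like IFI6 after group and slide were LOC107055361 (r = 0.98 over 21 and 0.79 over 19 birds), LOC417192 (0.91 and 0.70), PLVAP, a gene of endothelial diaphragms (0.70 and 0.66), the transcription factor NFIC (0.80 and 0.61) and LOC100857706 (0.61 and 0.74). LOC107055361 was the closest of them: it read 20250, 7784 and 5703 in the 3 birds of the WS study and 1043 to 2710 in the other 18. PLVAP and NFIC varied little, with 494, 415 and 418 against 210.3 to 451 and with 264, 289 and 292 against 152 to 305, and neither they nor LOC100857706 passed the slope test. All 5 were chosen for their correlation with IFI6 on these arrays, so that their values are a description. In the WB study the 3 birds with the highest IFI6 held ranks 10, 4 and 11 for PLVAP and 6, 12 and 9 for NFIC. Their ranks were 1, 4 and 2 for LOC107055361, 1, 11 and 3 for LOC417192 and 1, 8 and 3 for LOC100857706.

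The grades of WS were compared next, to ask whether the ISGs follow striping. None of 32630 probes differed among the 4 groups by the limma F test (0%; 4145 had an unadjusted p under 0.05; smallest adjusted p = 0.124), and 0 of the 5 genes with a probe did (adjusted p = 0.51 to 0.996, none with an unadjusted p under 0.05). The same held in the 4 pairs of grades tested: 0% of probes and 0 genes were called from mild to moderate (C1), from moderate to severe (C2), from mild to severe (C3) and from non-WS to severe WS, with 2803, 2663, 3073 and 1762 probes at an unadjusted p under 0.05. Mild and moderate WS were not tested against non-WS. IFI6 was selected for a wide spread between birds of one group, and that spread is the error term of these tests and of those of slide. The lack of a call was thus favored in advance for IFI6, and for MX1, which went with it. These tests therefore cannot decide whether these genes follow striping. In the F test and in severe against non-WS, a difference of age or origin cannot be told apart from striping. For severe against non-WS, 1 probe was called without moderate replicate 2 and 3 without severe replicate 4. For IFI6 the log2 fold change was -1.03 in C1 (SE 0.89, 95% interval -2.91 to 0.86), 0.99 in C2 (SE 1.04, -1.22 to 3.20), -0.03 in C3 (SE 1.04, -2.24 to 2.18) and 0.43 for severe against non-WS (SE 1.09, -1.88 to 2.74). For MX1 it was -0.22 in C1 (SE 1.29), 0.51 in C2 (SE 1.51), 0.28 in C3 (SE 1.51) and 0.33 for severe against non-WS (SE 1.58). The 95% interval of MX1 ran from -2.95 to 2.51 in C1 and from -3.02 to 3.67 for severe against non-WS, so that differences of over 2 log2 units in either direction lay within it. IFIH1 lay between -0.51 (C1, SE 0.34) and 0.01 (C2, SE 0.40). The brightest EIF2AK2 probe had 0.39 in C3 (SE 0.17, 95% interval 0.03 to 0.74), with a limma adjusted p of 0.492. It was the single member with an unadjusted p under 0.05 in any of these pairs.

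Single birds moved IFI6 in all 4 pairs. In C1 it ran from -1.51 (without mild replicate 2) to -0.14 (without mild replicate 1) and in C2 from 0.13 (without severe replicate 4) to 1.61 (without severe replicate 1). The direction in C3, at -0.03, was not settled. Leaving out single birds gave -0.89 (without severe replicate 4) to 1.07 (without mild replicate 1), and the sign turned for 5 of 21 birds. For severe against non-WS it ran from -0.44 (without severe replicate 4) to 1.21. None of these values passed the test.

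Slide was the other label asked about. Of 32630 probes 4313 (13.2%) differed between the 5 slides of the WS study once grade was in the fit, and 0 of the 5 genes did (limma F test, adjusted p = 0.223 for EIF2AK2 to 0.99 for DHX58, none with an unadjusted p under 0.05). Of the 3 birds with the highest IFI6, 2 were on slide 1 and 1 on slide 2, which hold 16 of the 21 arrays and all non-WS and severe birds. In the WB study 1 of 34518 probes (0.00290%) differed between slides, and 0 members did. Only non-WB2 and non-WB3 lay on 2 slides there, each with replicate 4 alone on slide 5. With group in the fit, the WB slide test rests on these birds. It can hardly detect a slide difference and cannot be set against the WS count. DHX58, not well above background, had an unadjusted p of 0.000325 (adjusted p = 0.698), and the other members had an adjusted p of 1.

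In the WB study the spread of IFI6 was smaller. Its signal was 3080 and 1545 in WB1 and 1316, 699.8 and 749 in non-WB1. It was 1039.5, 3822 and 1493 in WB2 and 1424, 1354, 798 and 1388 in non-WB2. It was 4184, 658 and 1046 in WB3 and 1242, 1128, 1525 and 853 in non-WB3. The 3 highest birds, WB3 replicate 1, WB2 replicate 2 and WB1 replicate 1, came 1 from each WB group, on 3 different slides, and were at 3.53, 3.22 and 2.60 times the median of the other 16 birds (1185). Of the remaining 5 WB birds, 3 lay within the range of the 11 non-WB birds (699.8 to 1525), 1 just above it (1545) and 1 below it (658).

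MX1 read 202, 188 and 88.8 in these 3 birds and 13.1 to 102 in the other 16 (median 34.5), with ranks 1, 2 and 4, and non-WB2 replicate 4 (102) held rank 3. IFIH1 read 343, 249 and 313 against 127 to 313 (median 207), with ranks 1, 5 and 2. EIF2AK2 showed no such order: XM_015283612.1 read 3628, 4190.5 and 3638 against 2704 to 7971, and NM_204487.1 465, 483 and 520 against 258 to 511. Their ranks among the 19 birds were 14, 9 and 13 for the first probe and 7, 4 and 1 for the second.

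**Figure D4:**
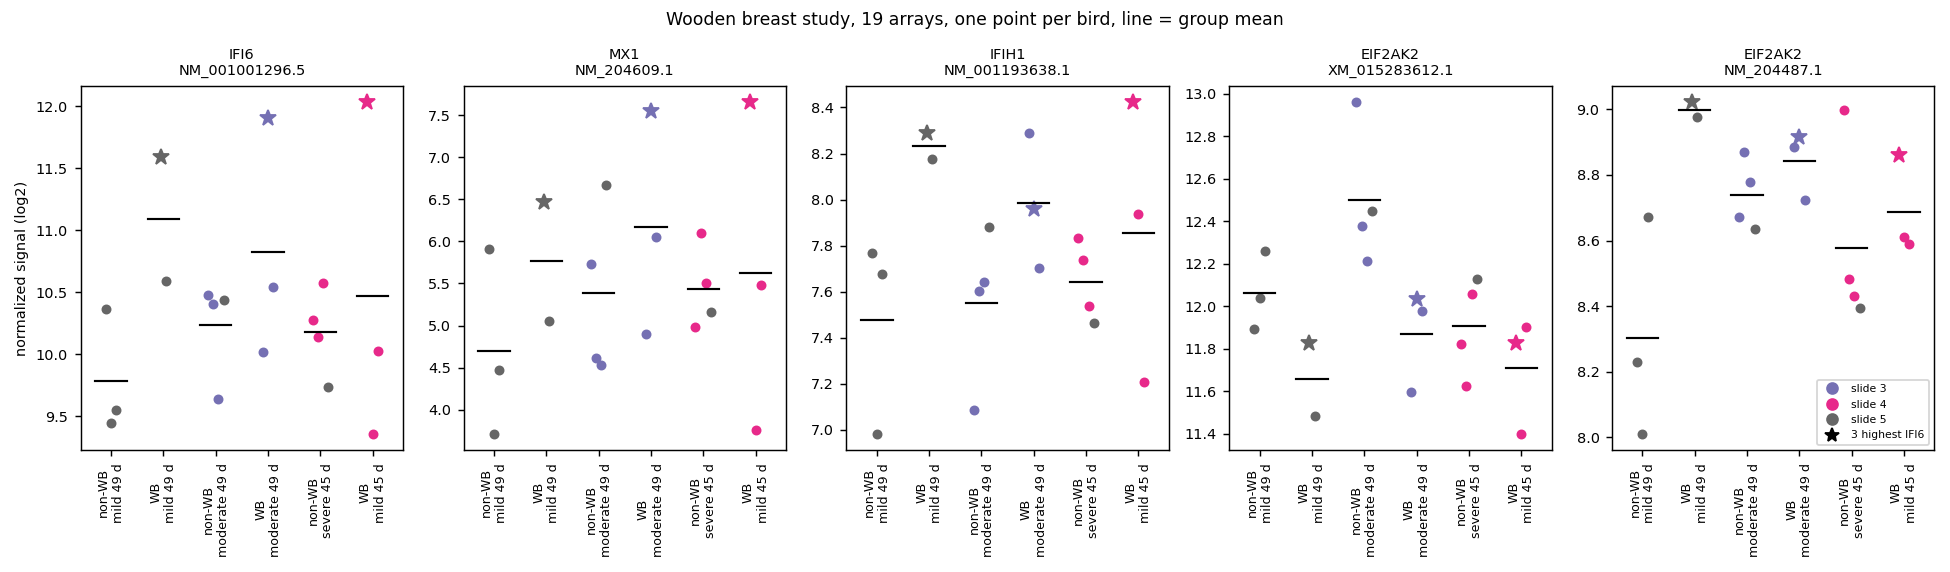
Normalized signal (log2, y axis) of IFI6, MX1, IFIH1 and 2 EIF2AK2 probes in the 19 birds of the WB study by group, striping grade and age in days (45 d stands for 45 days or under); points are birds colored by slide, bars are group means and stars mark the 3 birds with the highest IFI6. The 3 stars fall 1 in each WB group, and for MX1 the other 5 WB birds lie within the range of the non-WB birds.

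Beside the 6 groups and the slide, no probe of 34517 rose or fell with IFI6 (0%; 895 had an unadjusted p under 0.05), and 0 of the 4 other members passed. MX1 came closest, with a slope of 1.37 (SE 0.17, 95% interval 0.99 to 1.74, limma adjusted p = 0.0876, unadjusted p = 2.54e-06), the smallest adjusted p of all probes. It passed under other settings: the adjusted p was 0.0362 after a normexp background correction, 0.0484 after scaling to the 75th percentile, 0.0328 with the filter before normalization and 0.00588 without group and slide, and lay between 0.0527 and 0.95 under the other settings short of leaving out a single bird. IFIH1 had a slope of 0.14 (95% interval -0.15 to 0.42), XM_015283612.1 of 0.16 (-0.04 to 0.37) and NM_204487.1 of 0.06 (-0.13 to 0.25), each with an adjusted p of 1. Outside the 3 highest birds (n = 16), MX1 and IFI6 correlated at r = 0.732 and rho = 0.674 (permutation p = 0.00153 and 0.00526, adjusted 0.0122 and 0.021), at r = 0.537 without the 2 birds farthest from the median of IFI6 and at r = 0.76 within slide 5 (n = 6). IFIH1 (r = 0.178), XM_015283612.1 (0.19) and NM_204487.1 (0.325) had permutation p of 0.22 to 0.512. Within slide 5 r was 0.846 for IFIH1, -0.392 for XM_015283612.1 and 0.538 for NM_204487.1, which was not tested. The slopes were not tested against those of the WS study.

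None of the listed interferon genes passed the slope test in the WB study (limma; 1, SAMD9L, had an unadjusted p under 0.05). SAMD9L had the steepest slope of them (0.70, SE 0.21, limma adjusted p = 1). The median slope was 0.067 over 14 effectors, -0.066 over 9 sensors, -0.0089 over 15 signalling genes and -0.185 over 5 genes of antigen presentation, against -0.008 over all probes.

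Finally, WB was compared with non-WB over the 19 birds beside slide. Striping was not in this fit, and severe WS occurred in non-WB3 only. WB and striping grade can therefore not be fully told apart in this comparison. Of 34518 probes 9868 (28.6%) were called, 4599 of them higher in WB, and 2 of the 5 genes with a probe were among them, a share to be read against that background. IFIH1 was higher in WB: its signal was 313 and 289 in WB1, 313, 249 and 209 in WB2 and 343, 245 and 148 in WB3, and its 11 non-WB values ran from 127 to 235. The groups overlapped. The log2 fold change was 0.45 (SE 0.16, 95% interval 0.11 to 0.80, limma adjusted p = 0.0435). This call was narrow, and it was lost on leaving out any of 12 of the 19 birds: replicates 2 and 3 of non-WB1, 1 and 2 of non-WB2, 3 and 4 of non-WB3, and 1 and 2 of WB1, WB2 and WB3. The log2 fold change stayed between 0.39 and 0.57 over the 19 fits. Of all probes, 5536 were called without WB1 replicate 1 and 5175 without WB1 replicate 2.

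EIF2AK2 gave opposite signs at its probes. XM_015283612.1 was lower in WB, with 3638 and 2866 in WB1, 3101, 4190.5 and 4036 in WB2 and 3628, 2704 and 3824 in WB3 against 3154 to 7971 in non-WB birds (log2 fold change -0.42, SE 0.13, limma adjusted p = 0.0233). Without WB1 replicate 2 it was -0.38 and did not pass. NM_204487.1 stood at 0.24 on the same scale (SE 0.12, limma adjusted p = 0.136). The median over the probes of the gene is this same probe and adds nothing to it. A direction of EIF2AK2 as a gene was not settled. The fold change was 0.65 for IFI6 (SE 0.33, 95% interval -0.04 to 1.34, adjusted p = 0.139) and 0.63 for MX1 (SE 0.50, -0.42 to 1.69, adjusted p = 0.351), and neither passed. Both spread widely within the WB groups: 3.63% and 0.672% of probes had a larger residual SD after group and slide. Spread between birds is the error term here and in the strata. The lack of a call therefore cannot decide whether IFI6 and MX1 follow WB.

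Within the strata the numbers were smaller. At mild WS and 49 days (WB1 against non-WB1) 4008 of 34518 probes (11.6%) and 0 members by their brightest probe were called (IFIH1 had an unadjusted p under 0.05). The values were 1.30 for IFI6 (SE 0.67, limma adjusted p = 0.181), 1.06 for MX1 (SE 0.99, 0.457) and 0.76 for IFIH1 (SE 0.32, 0.119), and NM_204487.1 of EIF2AK2 was called at 0.69 (SE 0.21, adjusted p = 0.0469) with 520 and 504 in WB1 against 300.04, 258 and 408 in non-WB1. This call was lost without replicates 1 or 2 of non-WB1, any of replicates 1 to 3 of non-WB2 or replicate 2 of non-WB3. It was also lost without either WB1 bird, any WB2 bird or WB3 replicate 2. In these fits the log2 fold changes were 0.55 to 0.72. Without WB1 replicate 1 or 2, where 1 bird stands for WB1 and is assumed to vary like the other groups, 20 and 21 probes were called. Without non-WB1 replicates 1 and 2 the counts were 1198 and 270, and without WB3 replicate 3 the count was 8417. At moderate WS and 49 days (0% called, 4154 at an unadjusted p under 0.05) IFI6 stood at 0.65 (SE 0.60) and EIF2AK2 XM_015283612.1 at -0.65 (SE 0.22, limma adjusted p = 0.376), the one member with an unadjusted p under 0.05. IFI6 ran from 0.11 without WB2 replicate 2 to 1.05 without WB2 replicate 1, and 3 probes were called without non-WB2 replicate 3. At 45 days or under (0% called, 3798 at an unadjusted p under 0.05) IFI6 stood at 0.14 (SE 0.60) and no member had an unadjusted p under 0.05. The count of 0 rested on WB3 replicate 3, without which 4561 of 34815 probes and no member were called. IFI6 was at -0.64 without WB3 replicate 1. A difference among the 3 strata was called for no probe (0%, 2996 at an unadjusted p under 0.05) and no member (limma F test, adjusted p = 0.749 to 0.896), and for at most 2 probes on leaving out any 1 bird.

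**Figure D5:**
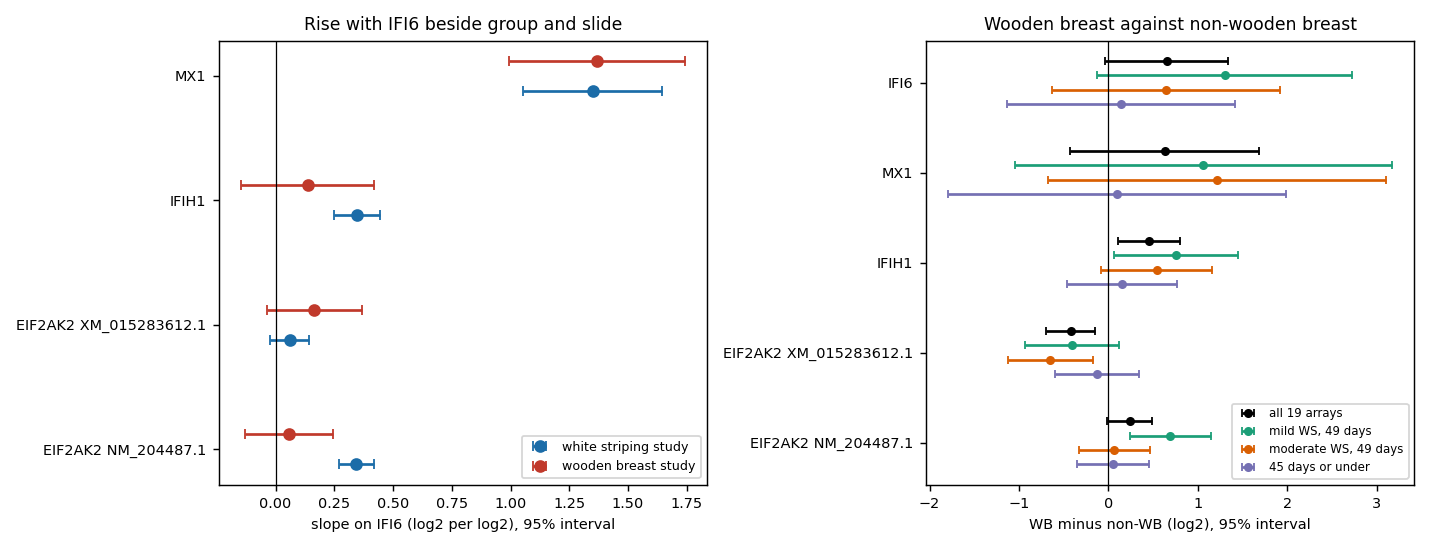
Left, slope of each member on IFI6 (x axis, log2 per log2) with its 95% interval from limma in the WS and WB studies; right, WB minus non-WB (x axis, log2) with 95% intervals over all 19 arrays and in the 3 strata of striping and age. The intervals of MX1 lie above 0 in both studies on the left, and on the right IFIH1 and EIF2AK2 XM_015283612.1 over all 19 arrays lie on opposite sides of 0.

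Calls among the listed interferon genes have to be read against the 28.6% of all probes called in either direction in this comparison. Counts of higher genes have to be read against the 4599 of 34518 probes called higher. No list was tested against either share. Among effectors, 5 of 14 were higher, namely EPSTI1 (log2 fold change 0.99, SE 0.30, limma adjusted p = 0.0217), LY6E (0.75, SE 0.22, 0.0196), ZC3HAV1 (0.53, SE 0.15, 0.0149), PARP12 (0.46, SE 0.16, 0.037) and DTX3L (0.41, SE 0.15, 0.0413), and IFITM5 was lower (-0.69, SE 0.25, 0.0441). The median of the list was 0.32, against -0.03 over all probes. Of 9 sensors 4 were higher: the kinase IKBKE (0.90), the DNA sensor CGAS (0.44) and the adaptors MYD88 (0.42) and TMEM173, also called STING (0.37). Of 15 signalling genes 4 were called, a share below that of all probes: IRF9, the DNA-binding partner of the STATs (0.95, SE 0.19, adjusted p = 0.00409), the interferon receptor chain IFNAR1 (0.65) and the kinase JAK2 (0.30) were higher and IRF2 was lower (-0.37). Of 5 genes of antigen presentation BF1 (1.05), BF2 (1.05) and BLB1 (0.65) were higher. None of the interferons themselves on the list passed the detection filter in either study.

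Markers of other cells moved in the same comparison. Beside the 4599 of 34518 probes called higher, 8 of 9 macrophage and monocyte genes were higher in WB (median log2 fold change 1.15). Among them were C1QA, C1QB, C1QC, CTSS and MARCO, whereas CD74, which is on the antigen presentation list as well, was at 0.17. Their summed signal was 315800 to 356100 in WB1, 215400 to 295600 in WB2 and 130000 to 272900 in WB3, against 136400 to 215600 over the 3 non-WB groups. All 7 fibroblast and matrix genes (median 1.02) and 5 of 7 lymphocyte genes (median 0.63) were higher too. Of 8 muscle fiber genes MYH1B was higher and ACTN2 lower, and the summed muscle signal ran from 996500 to 1292000 over all groups. Endothelium went the other way, with 0 of 5 genes higher and 2 lower (median -0.35). Of 4 erythrocyte genes 0 were higher and 1 lower (median 0.58), and of 5 adipocyte genes 1 was higher (median 0.04). The 2 heterophil genes were not called (median 0.49). The macrophage markers CSF1R, TYROBP and AIF1 had no matched probe. The 3 birds with the highest IFI6 held ranks 4, 8 and 2 of 19 by the macrophage sum and 3, 9 and 2 by the lymphocyte sum. CD74 (mean log2 signal 16.96, next CTSS at 14.7) and CD3D (13.36, next CD3E at 10.4) weigh most in these sums. The part of these cells in the differences of IFIH1, EIF2AK2 and the listed genes was not tested.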

How the data were processed

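Total RNA was labelled from oligo(dT) primers with Cy3 and hybridized to one-color chicken arrays, and samples needed an RNA integrity number over 7. The authors deposited scanner tables from Agilent Feature Extraction, whose processed signal is a background-corrected intensity on a linear scale. A value table deposited by the authors as intensity equals that processed signal on the WB arrays and holds normalized values on the WS arrays, and it served as an alternative. Transcript accessions were named through a RefSeq gene table.

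Unflagged spots of a probe were averaged (spots flagged as outliers were dropped, which left out some IFIH1 spots on 3 arrays), and the 2 studies were quantile-normalized separately over 56401 probes. Probes well above background, unflagged and at 20 or more on every array were tested, 32627 in the WS and 34515 in the WB study, plus the member probes that failed. The methods name the filter first; that order was an alternative. limma 3.58.1 in R 4.3.3 was fitted on log2 signals with slide beside group, with Benjamini-Hochberg adjustment over all probes, an FDR of 0.05 and, for contrasts, a fold change of at least 1.2. "Rose with IFI6" refers to the slope on the IFI6 signal. Correlations used 100000 permutations, two-sided, in SciPy 1.17.1. A gene is given by its brightest probe unless a transcript is named. Named genes were the members, the 5 genes most correlated with IFI6 in both studies and, of the lists, those called and otherwise up to 3. The members and gene lists were chosen with earlier results of these data known. The scripts were tested on simulated data. Depth has no count here: signal over background limits what can be measured. Slides are numbered 1 to 5.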

Additional observations from a re-analysis of the deposited data

Results flagged for a closer look

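Of 30 sets of one probe in one group of 4 to 10 birds, 6 held a bird whose gap to the nearest other bird was large for the range of its group (Dixon's test); chance flags about 1 in 20 such sets. IFI6 was selected for its spread between birds of one group, so that its 2 sets and those of mild WS replicate 1, which gives IFI6 that spread, are descriptions and cannot be set against this rate. Mild WS replicate 1 accounted for 4 of them, with log2 signals of 15.78 for IFI6 (next bird 10.14), 12.1 for MX1 (next 5.705), 9.625 for IFIH1 (next 7.545) and 10.33 for EIF2AK2 NM_204487.1 (next 8.309). These probes share the bird, so that they are not separate events. In the WB study IFI6 was low in non-WB2 replicate 3 (9.64, next 10.4), and EIF2AK2 NM_204487.1 was high in non-WB3 replicate 1 (8.997, next 8.482).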

How the results depend on the processing

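Settings tried were the background correction, the scaling, the filter, the slide term, the probe of a gene, the test and each bird left out; filtering before normalization, a floor of 20, EIF2AK2 by NM_204487.1 and leaving out the 3 birds with the highest IFI6 were chosen after seeing the data. No grade or slide comparison called a member under any setting run. In WB against non-WB, the 2 members called became 1 without a detection filter, with the median over the probes of a gene and with the mean of the 3 strata, 0 with the methods' t-test, and 0 to 2 on leaving out a bird (0 without WB1 replicate 2). Replicate numbers were not taken to pair birds, and whether they do was not settled. Same-numbered arrays of different groups had a median correlation of 0.0677 over 26 pairs in the WS and -0.00359 over 41 pairs in the WB study. Other numbers on the same slide had medians of 0.0098 and 0.0135. Of the same-numbered pairs, 11 in the WS and 5 in the WB study lay above 0.1, with maxima of 0.326 and 0.375. With the number as a replicate block the count was 0 (IFIH1 0.44, adjusted p = 0.074; EIF2AK2 -0.38, adjusted p = 0.0593) and 6631 probes were called in place of 9868; in WB1 1874 were called in place of 4008. In WB1 the deposited value table gave 2 members and the median over probes 1, against 0, and leaving out a bird gave 0 throughout. That table is not normalized between WB arrays: it moved the median WB difference of all probes from -0.03 to 0.30 and the higher share from 4599 of 9868 to 8701 of 10087 calls, and EIF2AK2 there stood at -0.16. Scaling to the 75th percentile gave 4139 of 9787. Over all probes, the WS slide test called 19 in that table in place of 4313, and WB1 14677 there and 2559 without a detection filter in place of 4008. The methods name a ComBat normalization, which corrects for batches, after the quantile step, and do not say which batches. Its part in the lower WS slide count was not tested.

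For the slopes on IFI6 in the WB study, 1 member (MX1) passed in place of 0 under normexp, the 75th percentile, no group and slide term, the filter before normalization and the permutation test of the correlation, and 0 to 1 on leaving out a bird (1 without non-WB2 replicate 2 or non-WB3 replicate 2). In the WS study 1 in place of 2 passed in the deposited value table, where MX1 could not be fitted, and with the permutation test, 0 without the 3 highest birds, and 0 to 2 on leaving out a bird (0 without mild replicate 1). The WS count was 3 with the median over the probes of a gene and with EIF2AK2 by NM_204487.1. The MX1 slope was 0.92 in the WS and 0.73 in the WB study under normexp, which raises low signals by its offset of 50.

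Signs turned as follows. The median over the 3 probes of EIF2AK2 is the value of the middle one, NM_204487.1. It gave -0.19 in C3, 0.24 in WB against non-WB and 0.069 in WB2, the values of that probe. The cause of the other turns was not tested. IFI6 in C3 was 0.66 without a slide term and with the methods' t-test and 0.42 with slide as a random block, and ran from -0.89 to 1.07 on leaving out a bird. IFI6 ran from -0.64 to 0.70 in WB3 and from -0.44 to 1.21 for severe against non-WS. In the WB slopes EIF2AK2 was -0.0014 without group and slide, EIF2AK2 NM_204487.1 was -0.10 and IFIH1 -0.25 without the 3 highest birds, and IFIH1 ran from -0.090 to 0.22 on leaving out a bird. The other values tried include counts of members called and cover only some pairs of gene and comparison. Of these, 1139 were taken as unchanged, 41 lost and 12 gained a call, and 30 counts moved. A value of 1 gene was unchanged when it kept direction and side of the threshold. A count was also taken as unchanged when it moved little, such as 3 members in place of 2. MX1 at under 20 in some birds and DHX58 below background everywhere limit what can be said of them.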
